A study of Mus musculus with 16 samples.

Results

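Gal and Vip, the genes for the peptides galanin and vasoactive intestinal peptide (VIP), were followed across 16 mouse pituitaries. They were chosen by their known response to oestrogen in lactotrophs and by earlier results of these same mice, in the first place the difference between genotypes on standard diet (SD), and are 2 of the 17362 genes listed. All mice were females of 27 weeks on a CD-1;129P2 mixed background, with 4 mice in each of 4 groups and 1 library per mouse. Controls carried the floxed allele of Esr1, the gene for oestrogen receptor alpha, without Cre (Esr1 fl/fl). Esr1 Nkx2.1-cre mutants, written Esr1Nkx2-1Cre in the labels, lose Esr1 in every cell whose lineage has switched on Nkx2-1. In each genotype 1 group was fed chow, called SD here, and the other a high-fat diet (HFD) for 17 weeks. The Nkx2-1 driver is active in hypothalamus and in the posterior lobe lineage of the pituitary, and the hormone cells of the anterior lobe are not known as its targets. The stage of the oestrous cycle at dissection is not given in the sources used here, and whole glands were read, so that more cells of a type and more RNA per cell cannot be told apart.

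Galanin is made by lactotrophs, the prolactin cells of the anterior lobe, and by many neurons. Its synthesis in the rodent pituitary is known to rise with oestrogen, and it acts on prolactin cells through galanin receptors, which couple to G proteins. VIP belongs to the secretin family with PACAP (pituitary adenylate cyclase-activating polypeptide, from Adcyap1), raises cAMP through the receptors encoded by Vipr1 and Vipr2, and is known as a releaser of prolactin that reaches the gland from the hypothalamus and is also made within it.

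In the annotation (GENCODE M21, GRCm38), Gal (ENSMUSG00000024907) lies on the reverse strand of chromosome 19 from 3409915 to 3414544, with protein-coding transcripts of 788 and 672 bases that both have 6 exons. Vip (ENSMUSG00000019772) lies on the forward strand of chromosome 10 from 5639218 to 5647617, with a protein-coding transcript of 7 exons and 1530 bases and a transcript that retains an intron. Neither overlaps another gene, and no other gene's transcripts shared at least 90% identity with either over at least 100 bp. The 250 bases before each start are shown because the 2 genes were high in the same group of mice, so that the start of each can be read beside the other (RefSeq, GRCm38.p6, 5′ to 3′ on the gene's strand). They are chr10:5638968-5639217 for Vip and chr19:3414545-3414794 for Gal. Capitals mark matches to the motifs described after them.
Vip: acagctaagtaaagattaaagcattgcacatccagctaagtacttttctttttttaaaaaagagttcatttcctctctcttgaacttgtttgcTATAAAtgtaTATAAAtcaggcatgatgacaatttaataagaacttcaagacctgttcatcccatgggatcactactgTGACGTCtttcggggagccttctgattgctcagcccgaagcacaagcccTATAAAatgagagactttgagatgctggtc
Gal: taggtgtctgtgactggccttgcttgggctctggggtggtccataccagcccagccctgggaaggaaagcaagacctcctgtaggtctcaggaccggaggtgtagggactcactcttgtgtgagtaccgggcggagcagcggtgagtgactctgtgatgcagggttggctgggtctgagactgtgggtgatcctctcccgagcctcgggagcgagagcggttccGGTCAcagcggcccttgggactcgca

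Both strands were searched for 6 letter strings in these windows and in the same window of all 32851 RefSeq promoters given. The Vip window holds TGACGTC, the cAMP response element without its last base, from -79 to -73 relative to the start, as do 2.78% of all promoters. This match includes the shorter string TGACG, found in 17.8% of promoters. It also holds TATAAA, the core of the TATA box, starting at -157, -147 and -30 (12.4% of promoters hold at least 1). The Gal window holds a single arm of the oestrogen response element, GGTCA, from -26 to -22, as do 35.2% of promoters, and holds no TATAAA. The Gal transcript of 672 bases starts 97 bases further downstream, and the bases between this window and that start were not searched. The whole oestrogen response element, GGTCA and TGACC with 3 bases between them (0.0639% of promoters), and the whole cAMP response element TGACGTCA (1.55%) are in neither window. The Vip window is 38.4% G or C, and 9.05% of promoters have less, whereas the Gal window is 62.4% G or C, and 77.5% have less. These are matches of letters and not measured binding.

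The deposited values are a normalised expression signal per gene and mouse that summed to between 908897 and 1335782. Their low values follow transcript length, so levels of different genes were set side by side only as ranks within a library. The pituitary hormone genes were abundant in every library, and Prl ranged from 262170 to 496850. Esr1, the targeted gene, lay between 29.0 and 46.6 in controls on SD and between 10.02 and 22.2 in mutants on SD. On HFD it lay between 23.6 and 43.4 in controls and between 21.5 and 33.4 in mutants, and the groups overlapped. Of 3 libraries that stood apart, 2 were low in some markers of the posterior and intermediate lobes. In the SD mutant P357 and the HFD control P392, Rax, a marker of posterior lobe pituicytes, was listed at 0, and Pomc, which melanotrophs of the intermediate lobe express strongly, was 1654 and 3443 against 11234 to 42042 in the other 14 mice. The third was the SD control P356, whose Gal stood above that of the other SD controls. Counts of calls are given with all mice and without these 3.

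Gal was among the most abundant messages of every mutant pituitary and varied widely among controls. In controls on SD its normalised expression was 94.7, 193, 278 and 1295, the last in P356. In mutants on SD it was 1849, 2265, 2583 and 3910.1, the last in P357. All 4 mutants on SD thus lay above all 4 controls on SD. In controls on HFD it was 247, 295, 652 and 2548, the last in P392, and in mutants on HFD it was 1819, 1949, 2149 and 2579. Of the 4 HFD controls 3 lay below every HFD mutant, and P392 lay within the range of the mutants. Among all listed genes Gal ranked between 19 and 26 in the 8 mutants and between 22 and 796 in the 8 controls, where P392 had rank 22 and P356 rank 47.

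Vip was expressed at a far lower rank and separated the genotypes completely. In controls on SD it was 2.57, 2.63, 2.91 and 4.65, with P356 again the highest. In mutants on SD it was 9.15, 24.7, 24.8 and 37.8, with P357 again the highest. In controls on HFD it was 2.21, 2.65, 3.64 and 5.004, with P392 the highest, and in mutants on HFD it was 6.60, 7.11, 13.7 and 17.0. Every one of the 8 mutants (6.60 to 37.8) lay above every one of the 8 controls (2.21 to 5.004). Of all 14345 genes tested 40, or 0.279%, were higher in all mutants than in all controls, and Vip is 1 of them. Vip was chosen with results of all these mice known, on SD and on HFD, so this share is a description only. Its rank among listed genes was between 2952 and 9899 in mutants and between 10617 and 12511 in controls. From the spacing of low values, 1 read was worth about 0.0459 to 0.0704 units per kilobase, which puts Vip at roughly 43 to 108 reads in controls and 165 to 772 in mutants and Gal at roughly 1038 to 33551 reads. On that estimate counting alone would spread the control values of Vip by 9.63% to 15.2%.

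**Figure D1:**
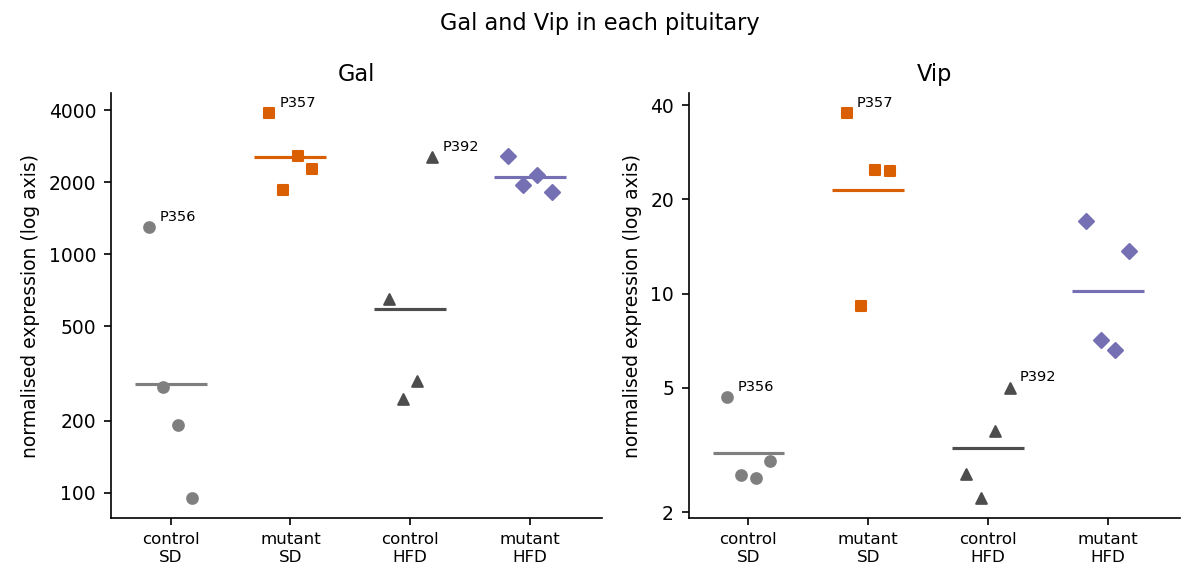
Normalised expression of Gal (left) and Vip (right) on log axes, 1 point per mouse in 4 groups, with a line at the mean of the log2 values; 3 mice are named. Gal is high in all mutants and in the control P392 (2548), whereas Vip of every mutant (6.60 or more) lies above that of every control (5.004 or less).

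On SD, the controls had a mean Gal of 465 ± 558 (SD, n = 4) and the mutants of 2652 ± 891 (SD, n = 4), a ratio of 5.70. On the scale of log2(value + 0.5) the difference was 3.16, which placed Gal at position 15 among the increases of all genes tested. The controls had a mean Vip of 3.19 ± 0.987 (SD, n = 4) and the mutants of 24.1 ± 11.7 (SD, n = 4), a ratio of 7.56 and a log2 difference of 2.61, at position 39. No test is given for these differences, because the genes were chosen with them known. In this comparison 6.09% of all genes had every mutant above every control, and 2855 of 14345 had an unadjusted p under 0.05 (limma). Without P356 the log2 difference of Gal on SD was 3.89.

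On HFD, the mice are not those of the SD comparison, but the results known when the genes were chosen covered them too, so these differences are again a description with no test. Here mean Gal of the controls was 935 ± 1090.1 (SD, n = 4) and of the mutants 2124 ± 332 (SD, n = 4). The log2 difference was 1.83 with a standard error of 0.70. The groups overlapped through P392, and Gal stood at position 54 among the increases. Mean Vip of the controls was 3.38 ± 1.24 (SD, n = 4) and of the mutants 11.1 ± 5.09 (SD, n = 4). Its log2 difference was 1.53 with a standard error of 0.38. It was higher in 4 of 4 mutants than in any control and stood at position 93. With limma 0 of 14345 genes, or 0%, passed on HFD, while 1461 had an unadjusted p under 0.05, and in 2.96% of genes every HFD mutant lay above every HFD control.

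On HFD the difference of Gal and the number of genes called turned on P392. Without it the log2 difference of Gal was 2.54, and 653 of all genes tested passed instead of 0 (limma). Vip changed less, from 1.53 to 1.71, and its HFD groups did not overlap with or without P392. The animal numbers fall into a lower range (P339 to P359) and an upper range (P381 to P392). On SD the lower range holds the controls P356, P358 and P359 and the mutant P357. All HFD controls are in the upper range. Within that range the mutants P387 and P388 lay above all 4 HFD controls in Vip (6.60 and 13.7), and above 3 of them in Gal.

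The diets were compared within each genotype as a description, since these values share the SD mice. In mutants, Vip was lower on HFD than on SD by 1.03 on the log2 scale (ratio of means 0.46), and the lowest SD mutant, at 9.15, lay inside the HFD range of 6.60 to 17.0. Gal in mutants differed between diets by -0.28. In controls, the difference between diets was 0.05 for Vip and 1.05 for Gal, and the latter was 0.35 without P392, 0.52 without P383 and 1.78 without P356. Whether the diet difference of Vip itself differed between genotypes was not tested.

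Gal of the 8 controls was set beside Pgr, for the progesterone receptor, and Greb1, for a cofactor of the oestrogen receptor, both known to be induced by oestrogen. In ascending order of Gal the controls were P383, P359, P390, P358, P391, P385, P356 and P392. In that order Greb1 was 49.3, 39.8, 58.1, 53.6, 42.3, 100.4, 106 and 111, and Pgr was 5.93, 4.56, 7.74, 5.59, 5.41, 12.9, 17.4 and 20.1. In mutants Greb1 lay between 99.9 and 118 and Pgr between 10.7 and 22.2. These 2 genes were set beside Gal after their values were seen. Of the 13 oestrogen-responsive genes tested, 5 had the same 3 highest controls as Gal (Pgr, Greb1, Xbp1, Nrip1 and Myc), 3 shared 2 of them, 4 shared 1, and Esr1 shared 0. No test is given for this reading, and how many of all genes tested have these 3 highest controls was not counted. The 5 genes thus cannot be read as a link particular to oestrogen. In the same order Vip was 2.91, 2.57, 2.21, 2.63, 3.64, 2.65, 4.65 and 5.004.

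**Figure D2:**
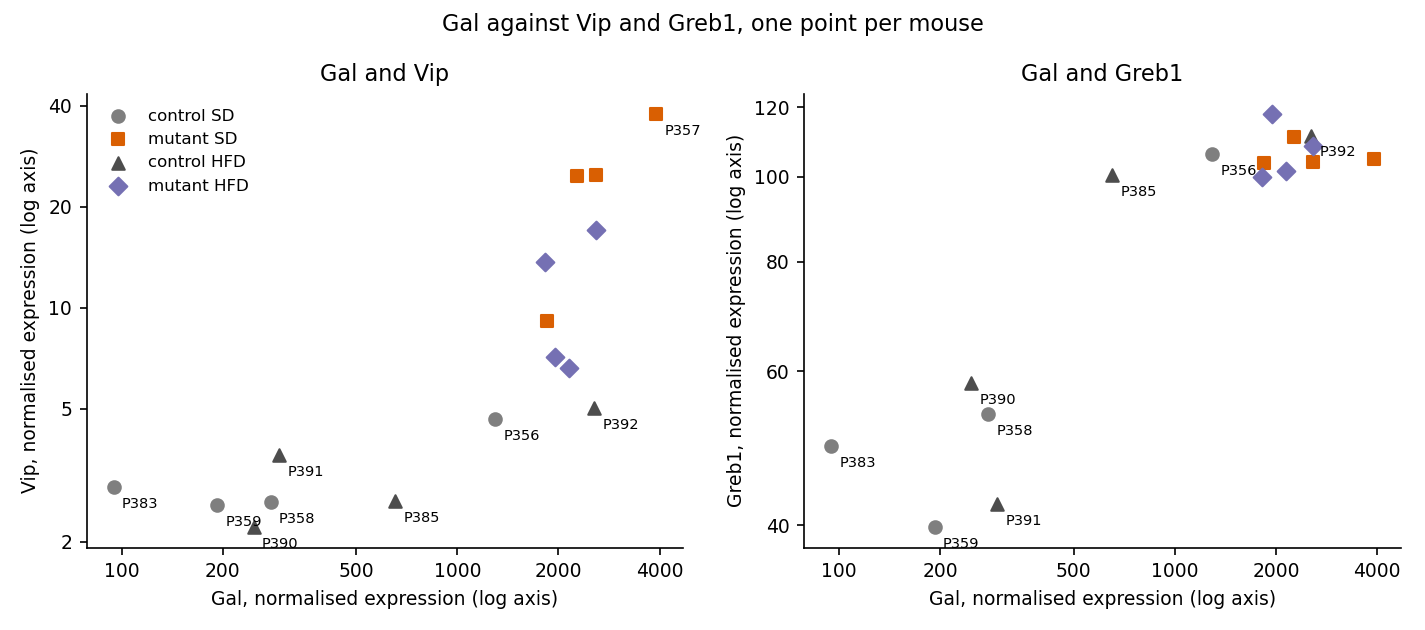
Gal against Vip (left) and against Greb1 (right), normalised expression on log axes, 1 point per mouse, with the controls named. In Greb1 the controls P385, P356 and P392 lie with the mutants (100.4 or more). In Gal P392 alone does so, while P356 (1295) and P385 (652) lie below the lowest mutant (1819). In Vip no control reaches the lowest mutant (6.60).

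Beyond the group differences, deviations of log2 values from their group means were related over the 16 mice for 5 pairs, with 100000 permutations within groups. Gal and Vip had a Pearson r of 0.505 (permutation p = 0.00623, adjusted over the 5 pairs 0.0311) and a Spearman rho of 0.512 (permutation p = 0.0315, adjusted 0.157). Without P356 and P392, the mice farthest from the median of Gal, r was 0.318 (permutation p = 0.192), so the relation rests on them. Gal and Prl had an r of 0.436 (adjusted permutation p = 0.213) and Vip and Prl an r of 0.477 (adjusted permutation p = 0.213). For Gal and Esr1 r was -0.0251, and for Vip and Esr1 it was -0.308, with adjusted permutation p-values of 0.929 and 0.453.

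The genes whose log2 values were most like those of Gal over the 16 mice were Tdrd12 (Pearson r 0.976), Slc25a39, a mitochondrial carrier (0.975), Gm11658 (0.971), Ntrk3, the receptor of neurotrophin-3 (0.970), and Angptl7 (0.966). Ntrk3 ran from 17.8 to 170 in SD controls and from 154 to 210 in SD mutants. For Vip they were Penk, the enkephalin precursor (0.938), Pld3 (0.921), Marcksl1 (0.908), Fat3, an atypical cadherin (0.891), and Gm7694 (0.890). Pld3 was 285 to 336 in SD controls and 385.5 to 433 in SD mutants, and on HFD 286 to 345 in controls and 353 to 412 in mutants. Vip stood at position 519 in likeness to Gal, with an r of 0.802, and Gal at position 92 in likeness to Vip. By deviations from group means, Gal was most like Fbxw7 (0.962), Angptl7 (0.959), Dap (0.957), Tdrd12 (0.956) and Slc25a39 (0.956), and Vip most like Ifi208 (0.819), Miga1 (0.806), Tpm3-rs7 (0.800), Gm5431 (0.798) and Usp4 (0.794). Tpm3-rs7 is a near copy of Tpm3, so reads of the 2 may not have been told apart. All correlations share the same 16 libraries and are given as a description.

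Of the galanin system, Galr3 was the single gene abundant enough to be tested. This receptor gene lay between 2.47 and 12.3 in SD controls and between 4.19 and 11.1 in SD mutants, with a log2 difference of 0.17 (standard error 0.35, adjusted p = 0.824, limma), and on HFD the difference was -0.01 (adjusted p = 0.999). Galr1 had a mean of 0.987 over all mice, just under the filter of 1. It lay between 0.166 and 0.243 in 3 SD controls, at 1.37 in P356, and between 1.15 and 1.97 in SD mutants. On HFD it lay between 0.2195 and 1.31 in controls and between 0.871 and 1.55 in mutants, and the groups overlapped on both diets. With the filter lowered to a mean of 0.1, its log2 difference was 1.09 on SD (adjusted p = 0.0968, limma) and 0.49 on HFD (adjusted p = 0.672). Under the same filter Galr2, with a mean of 0.786, differed by -0.19 on SD and 0.04 on HFD (adjusted p = 0.806 and 0.986, limma). Galp and Spx, for the related peptides galanin-like peptide and spexin, are not analysed here.

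Of the VIP and PACAP system, 4 of 12 genes were tested and none passed on either diet (limma, against 1 gene at an unadjusted p under 0.05 on each diet). Adcyap1, which encodes PACAP, was listed at 0 in 7 of 8 controls and at 13.4 in P392. In SD mutants it was 0.317, 0.526, 0.543 and 0.996, and in HFD mutants 0.1004, 1.88, 2.59 and 12.8. It was thus above 0 in every mutant, with an adjusted p of 0.543 on SD and 0.706 on HFD (limma). The VIP receptor genes were near the limit of measurement, at 0.0134 to 0.579 for Vipr1 and 0.116 to 2.14 for Vipr2. Under the lowered filter their log2 differences were -0.06 and -0.02 on SD and 0.07 and 0.19 on HFD (adjusted p at least 0.912 in all 4, limma).

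The other receptors of the secretin family gave no call either. Adcyap1r1, the PACAP receptor gene, was 4.38 to 9.10 in SD controls and 3.63 to 6.58 in SD mutants (log2 difference -0.30, adjusted p = 0.565, limma). On HFD it was 3.13 to 3.64 in 3 controls, 8.04 in P392 and 5.59 to 7.29 in mutants (0.62, adjusted p = 0.458, limma). Without P392 it passed on HFD, as did 4.55% of all genes tested. Ghrhr, the receptor gene of somatotrophs for growth hormone-releasing hormone, differed by -0.44 on SD and -0.36 on HFD (adjusted p = 0.232 and 0.563, limma). Glp1r differed by -0.84 on SD and 0.72 on HFD (adjusted p = 0.257 and 0.574), and in SD mutants it was listed at 0 in P357. Under the lowered filter Sctr, the secretin receptor gene, differed by 0.36 on SD and 0.05 on HFD (adjusted p = 0.490 and 0.982), and Gipr by -0.39 and -0.33 (adjusted p = 0.478 and 0.773). Sct, Ghrh, Gcg and Gip are not analysed here.

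Among the precursors of other neuropeptides, 3 of 16 tested genes were higher in SD mutants and 0 were lower, where 1.37% of all genes tested were called higher and 0.474% lower. The list was chosen with earlier results of these data known, so this count and its calls are a description and no independent evidence. With each of the 16 mice left out in turn, Penk passed every time, Prlh 9 times and Nmb 5 times. Prlh was lost without any of P358, P359, P383 or the 4 SD mutants, with adjusted p up to 0.0966 (limma), and Nmb without any of 11 mice, with adjusted p up to 0.131, and also without P356, P357 and P392. Penk was 47.1, 58.2, 71.8 and 72.0 in SD controls and 295, 308, 357.5 and 463 in SD mutants, with a log2 difference of 2.50 (standard error 0.33, adjusted p = 0.00415, limma). The start of Penk overlaps A830012C17Rik on the other strand, and without knowledge of strand use their reads cannot be told apart. Prlh, the gene for prolactin-releasing hormone, was listed at 0 in 3 SD controls and was 17.1 in P356, against 236 to 418 in SD mutants (adjusted p = 0.0297, limma). Like Gal it was high in P392, at 556, whereas the other HFD controls had 7.71 or less and the HFD mutants 180 to 380. Nmb, for neuromedin B, was 5.70 to 15.3 in SD controls and 17.8 to 20.8 in SD mutants, with a log2 difference of 1.00 (adjusted p = 0.0468, limma). The list's median difference was 0.19 on SD and 0.32 on HFD, beside -0.01 and 0.02 for all genes tested. None of the 3 passed on HFD, where Penk differed by 1.47 (adjusted p = 0.205, limma). Penk and Prlh did so without P392, as did Agt in the same direction and Nmu as lower. In that fit 4.55% of all genes tested were called.

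**Figure D3:**
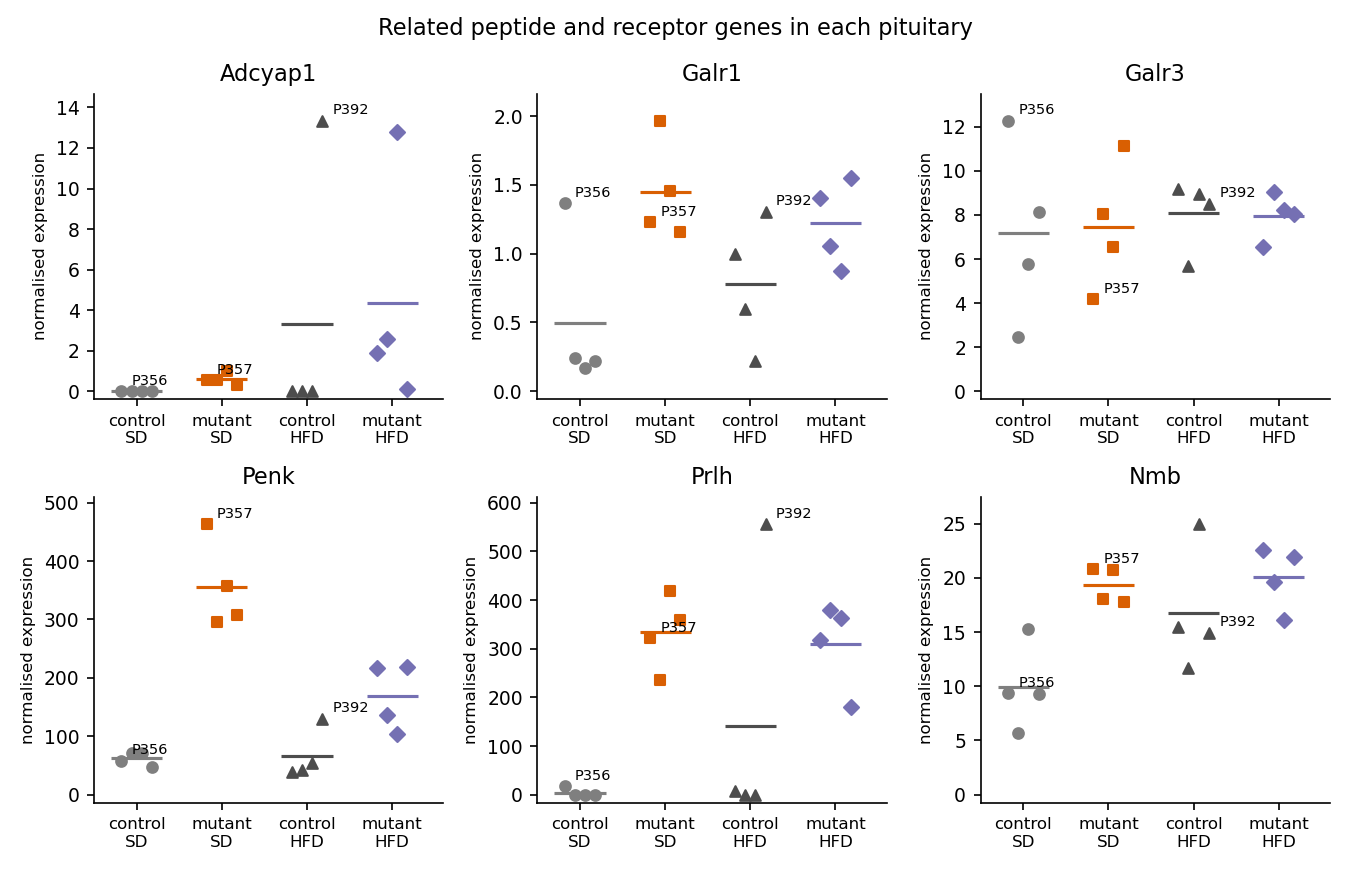
Normalised expression of 6 related peptide and receptor genes on linear axes, 1 point per mouse in 4 groups, with a line at the group mean. Adcyap1 and Prlh are at or near 0 in most controls and high in the control P392 (13.4 and 556), and Galr3 overlaps between all groups.

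The genes of peptide maturation, which cut, amidate and pack prohormones into granules, showed no call among 12 tested on either diet (limma). Their median log2 difference was -0.24 on SD and 0.06 on HFD, with 5 genes on SD and 4 on HFD at an unadjusted p under 0.05. Of all 14345 genes tested, 2855 on SD and 1461 on HFD were under it. Without P392, Vgf, a granule peptide precursor, was called higher on both diets and Qpct, which forms the pyroglutamate end of some peptides, lower on HFD. Without P356, Scg2, for a secretogranin, was called lower on SD. Of 4 lactotroph genes none passed, with 2 on SD and 1 on HFD at an unadjusted p under 0.05. Prl differed by 0.25 on SD and 0.08 on HFD (standard error 0.51). Drd2, the dopamine receptor through which prolactin cells are restrained, was 52.5 to 69.7 in SD controls and 12.4 in P357 and 33.7 to 43.3 in the other SD mutants. Its log2 difference was -1.06 (adjusted p = 0.110, limma) on SD and -0.05 on HFD, and it passed on SD without P392. Pou1f1, the lineage factor of these cells, was called lower on SD without P356. Of all genes tested 5.76% were called on SD without P356, against 1.84% with all mice. Without P392 it was 5.42% on SD and 4.55% on HFD.

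Of 13 oestrogen-responsive genes tested, Esr1 itself was lower on SD (log2 difference -1.09, adjusted p = 0.0409, limma), none was higher, and none passed on HFD, where 4 had an unadjusted p under 0.05. The call of Esr1 was lost without any of 10 of the 16 mice, with adjusted p up to 0.120 (limma). Pgr differed by 0.98 on SD (adjusted p = 0.171) and 0.85 on HFD (adjusted p = 0.460), and Greb1 by 0.87 (adjusted p = 0.118) and 0.55 (adjusted p = 0.534). Without P356 and P392 both were called higher in mutants on both diets, with Myc the third gene of the list on SD and Igfbp4 the third on HFD. P356 and P392 had the highest Pgr and Greb1 among the controls of their diets, so leaving them out favours these calls. That set of mice was chosen after the values were seen, and the calls are no independent evidence. Of 12 genes commonly induced through cAMP none passed, with a median difference of 0.07 on SD and 0.58 on HFD. Of them 2 and 4 had an unadjusted p under 0.05, as had 2855 and 1461 of all 14345 genes tested. Without P392, Sik1 was called higher on HFD, and without P356 and P392 Sik1 and Pde10a were called higher on SD as well. Of 6 tested cell division genes none passed, with medians of 0.47 and 0.51 and with 0 and 2 at an unadjusted p under 0.05, and without P356 and P392 Cdk1 was called higher on both diets. Over all lists the number of genes passing was 4 on SD and 0 on HFD. Without P356 and P392 it was 15 and 12, and without P357 as well it was 17 and 18, while 9.52% and 5.47% of all genes passed without the first pair and 13.2% and 9.29% without all 3.

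**Figure D4:**
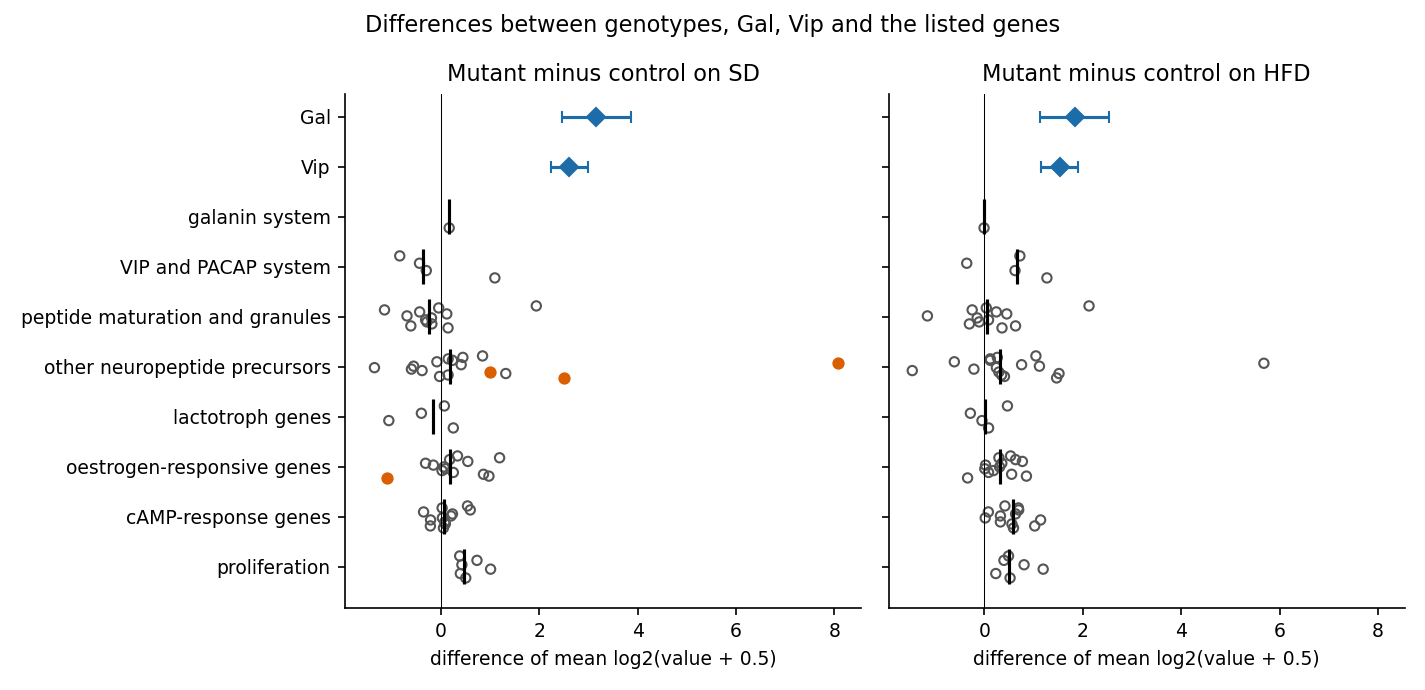
Difference of mean log2(value + 0.5), mutant minus control, on SD (left) and HFD (right). Diamonds are Gal and Vip with 1 standard error, circles are genes of 8 lists, filled where the adjusted p is under 0.05, and bars are list medians. Gal and Vip lie at 3.16 and 2.61 on SD and at 1.83 and 1.53 on HFD, beyond most listed genes, and 4 listed genes are filled on SD and 0 on HFD.

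Markers of other cells moved with some of these results. All 6 endothelial markers were listed and none was at 0. Their summed level was 105 to 127 in SD controls and 159 to 214 in SD mutants. On HFD it was 97.7 to 112 in 3 controls, 191 in P392 and 154 to 173 in mutants. P392 thus lay with the mutants, as it did in Gal, while P356, at 112, lay with the other controls. The 6 immune markers summed to 38.8 to 53.2 in SD controls and 63.9 to 146 in SD mutants, and on HFD to 33.2 to 61.8 in 3 controls, 109 in P392 and 61.1 to 134 in mutants. The part of these cells in the levels of Gal and Vip was not tested.

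Several markers of posterior lobe and hypothalamic axons were at 0 or low in P357 and P392, while others of the same lists were not low there. P357, with the highest Gal and Vip of all, had Rax and Lhx2 at 0 and Nkx2-1 at 0.414, where the other SD mutants had Nkx2-1 between 0.897 and 1.34. Avp, the vasopressin gene of axons in the posterior lobe, was listed at 0 in P357 and P392 and lay between 1.90 and 11.9 in the other 14 mice. Scn7a was 0.286 in P357 and 0.173 in P392, against 2.54 to 4.05 in the other 14. Oxt was 0.792 and 2.10 in these mice, against 14.2 to 36.6. Nkx2-1 was listed at 0 in P392. Slc17a6 and Elavl3, also on the list of hypothalamic neurons, were higher in P392 (27.1 and 3.09) than in any other control. The 5 posterior lobe markers summed to 15.8 to 18.8 in SD controls, 14.6 to 30.4 in SD mutants, 15.2 to 17.1 in HFD controls and 22.4 to 25.3 in HFD mutants. Of these 5 Col25a1 was called higher in SD mutants (log2 difference 1.00, adjusted p = 0.0321, limma) and it was also high in P392, at 15.3, so the sum is not a measure of that lobe alone. The part of posterior lobe tissue in the levels of Gal and Vip was not tested. On HFD the sum of every mutant lay above that of every control, but the mean log2 values overlapped (controls up to 1.64, mutants from 1.59). The 6 hypothalamic markers summed to 44.8 to 62.5 in SD controls and 24.7 to 77.4 in SD mutants. On HFD they summed to 38.9 to 55.2 in controls and 63.3 to 89.1 in mutants, without overlap. Their mean log2 values did overlap on HFD (controls up to 2.60, mutants from 2.55). The 4 melanotroph markers summed to 11563 to 17447 in SD controls and 1665 to 15182 in SD mutants. On HFD they summed to 3474 to 42207 in controls and 14209 to 22145 in mutants. The 3 lactotroph markers, nearly all Prl, summed to 285540 to 331220 in SD controls and 303430 to 497090 in SD mutants, and on HFD to 262570 to 439240 in controls and 294570 to 424140 in mutants, with overlap on both diets.

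**Figure D5:**
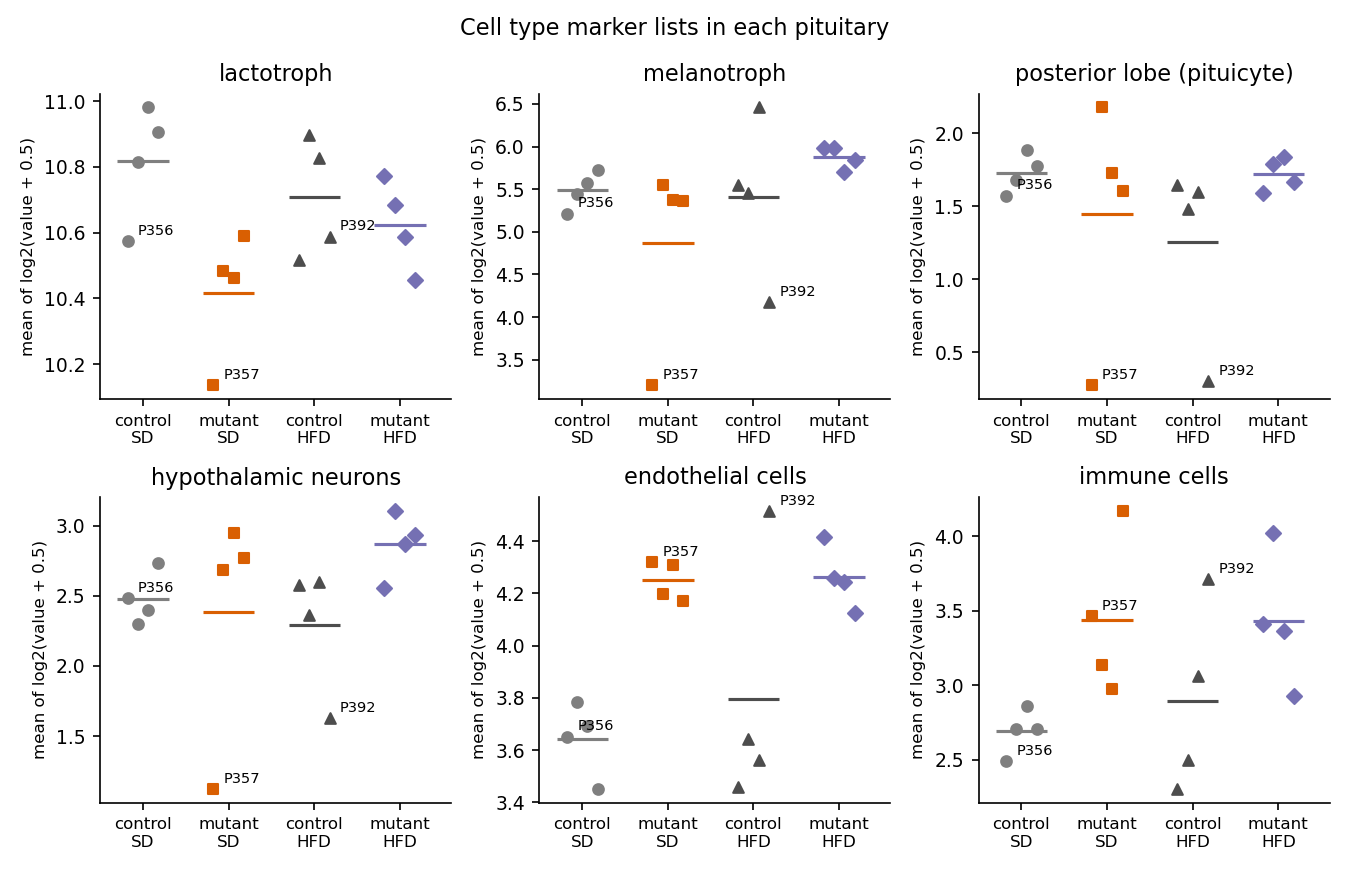
Mean of log2(value + 0.5) over the markers of 6 cell types, 1 point per mouse in 4 groups, with a line at the group mean. Endothelial markers are high in all mutants and in P392 (4.52), and posterior lobe markers are low in P357 (0.27) and P392 (0.31), which have high Gal.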

How the data were processed

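Pituitary RNA of 16 mice was profiled, 4 in each combination of genotype and diet, grouped by the labels. The members and gene lists were chosen with earlier results of these data known. The authors made NEBNext Ultra II libraries, sequenced them on an Illumina NovaSeq, quantified them with kallisto in gene mode (mm10) and tested genes with sleuth, with versions, annotation and use of strand not given in the sources used here. The deposited values are a normalised expression signal per gene whose scaling is not stated, so no test for counts was run and depth is known only from a rough estimate. Symbols were matched for 17351 of 17362 identifiers. Genes with a mean of at least 1 (14345) entered limma 3.58.1 (R 4.3.3) on the scale of log2(value + 0.5), with 4 group means, eBayes with trend and Benjamini-Hochberg adjustment at 0.05 within each comparison. This scale understates changes of low genes. With 1 library per mouse, p-values measure the spread between mice. On simulated data for mutant against control on SD, over 14345 genes, the fit found 71.0% of 200 genes given a log2 change of 1, with 3.40% false calls, and 92.5% of 200 given a change of 2, with 7.04% false calls. The simulation drew the values of each gene independently and held no library that stood apart in many genes, so these rates may not hold for these mice. No p-value is given for Gal or Vip between genotypes or diets, although tests on HFD had been planned, because the genes were chosen with those results known. Relations (100000 permutations) and figures were made in Python 3.11.15 (scipy 1.17.1, numpy 2.4.6, pandas 2.3.3, matplotlib 3.10.9), and BLAST 2.17.0 looked for similar transcripts. Named genes are Gal, Vip, all genes of the galanin and the VIP and PACAP lists, genes of other lists that passed, Prl, Drd2, Esr1, Pgr, Greb1 and Penk, and the 5 genes most like each member. Marker genes, genes called only without some mice and those in the closing observations were named after their values were seen. Alternatives were other filters, pseudocounts, scalings, variance models, samples, a covariate, leaving out mice and a threshold of 0.01, and the sets without P356 and P392, and without P357 as well, were added after the values were seen.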

Additional observations from a re-analysis of the deposited data

Results flagged for a closer look

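In 76 sets of 4 values (a gene in a group of mice), 11 had a mouse that stood apart from the other 3 by a gap over Dixon's 95% critical share of the group's whole range, where chance flags about 1 set in 20, or 3.8. Of them 4 concern the SD control P356, with Gal at 1295 (others 94.7 to 278), Vip at 4.65 (others 2.57 to 2.91) and Pgr at 17.4 (others 4.56 to 5.93), none of which stood apart on the log2 scale, while Galr1 at 1.37 (others 0.166 to 0.243) did so on both scales. In the HFD control P392, Adcyap1 was 13.4 where the others were listed at 0, and Adcyap1r1 was 8.04 (others 3.13 to 3.64). In the SD mutant P357, Galr2 was 0.196 (others 0.964 to 1.099) and Esr1 was 10.02 (others 20.5 to 22.2). In the SD mutant P384, Vipr2 was 2.14 (others 0.265 to 0.499) and Greb1 was 111 (others 104 to 105), and in the HFD mutant P388 Adcyap1r1 was 5.59 (others 7.03 to 7.29).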

How the results depend on the processing

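No paired analysis was possible because the labels carry animal numbers and no replicate number shared between groups. The HFD differences of Gal (1.83) and Vip (1.53) kept their direction under every alternative and were 2.54 and 1.71 where P392 was left out, with the same values without P356 and P392 and without P357 as well. Over all leave-one-out fits they lay between 1.42 and 2.54 and between 1.29 and 1.73, and 1.36 and 1.31 in the fit with a term for low or high animal number. On SD, leave-one-out differences were 2.63 to 3.89 for Gal and 2.35 to 3.01 for Vip. With the term for animal number the SD difference of Gal was 3.64. In mutants the diet difference was -0.43 to -0.07 for Gal and -1.43 to -0.77 for Vip, and in controls 0.35 to 1.78 and -0.14 to 0.22, where the near-zero value of Vip changed sign without P358, P359 or P392. List genes passing on SD (4) numbered 1 to 9 when 1 mouse was left out (9 without P356), 2 with equal sums without Prl, 1 at a threshold of 0.01, 15 without P356 and P392 and 17 without P357 as well. On HFD (0) they numbered 0 to 9 (9 without P392), then 12 and 18. The Gal and Vip relation (0.505) fell to 0.467 with equal sums without Prl (adjusted p = 0.0747), 0.318 without P356 and P392 and 0.153 without P357 as well. Leaving out 1 mouse gave 0.419 to 0.556, and its adjusted permutation p missed the threshold without P356, P359, P357, P381, P382, P392 or P339, at up to 0.208. For Gal and Prl leave-one-out r was 0.176 to 0.556, passing without P390 alone, and r was -0.0233 without P356, P357 and P392. For Vip and Prl it was 0.308 to 0.603, for Gal and Esr1 -0.218 to 0.135 (0.0741 under quantile normalization) and for Vip and Esr1 -0.447 to -0.0162. Quantile normalization gives no value for relations with Prl, the highest gene of every library. Of 377 alternative values 333 stayed on their side of the threshold or within the spread, and none reversed a called direction. Some alternatives could not move a value, as where an HFD mouse was left out for an SD difference. The differences of Gal and Vip carry no call that could be reversed. The share of 333 is thus no measure of how robust the results are. The number of mice and the unknown depth limit the low genes most, Vipr1 and Galr1 among them.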

Other observations

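Vgf and Agt, looked at after their values were seen, were high in all mutants and in the control P392, and did not follow Gal in the controls P356 and P385. Vgf was 14.4 to 24.01 in SD controls and 58.8 to 89.8 in SD mutants, and on HFD 9.48 to 13.7 in 3 controls, 165 in P392 and 60.7 to 150 in mutants, with 24.01 in P356 and 10.5 in P385. Agt, the angiotensin precursor, was 0.222 to 0.421 in SD controls and 0.909 to 1.26 in SD mutants, and on HFD 0.238 to 0.502 in 3 controls, 2.80 in P392 and 0.90 to 2.67 in mutants, with 0.371 in P356 and 0.238 in P385. Penk of P392, at 130, lay above the other 3 HFD controls (38.0 to 54.1) and above 1 of the HFD mutants (103 to 218). Qpct differed by -1.16 on HFD (adjusted p = 0.211, limma), and Nmu, for neuromedin U, by -1.47 (adjusted p = 0.211, limma). Nmu was a low gene, at 0 to 1.0748 in HFD mutants and 1.0836 to 3.468 in HFD controls, so its groups were only just apart. How many of all genes tested had every HFD mutant below every HFD control was not counted.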
